A study of Mus musculus with 12 samples.

Results

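Cells sorted as hematopoietic stem cells (HSCs) from mice lacking the β3-adrenergic receptor were compared with wild-type cells, both after sham surgery. All 6 sham libraries of the 12 in the series belong to this comparison by their genotype and surgery labels. Of these, 5 were used for the results, 2 wild-type (replicates 2 and 3) and 3 Adrb3-/-, because wild-type sham replicate 1 was a failed reaction; its effect is given at the end. The mice were male and the wild-type strain was C57/BL6. Femur marrow was taken on day 3 after surgery, the cells were sorted straight into Trizol LS and total RNA was assayed. The other 6 libraries came from mice that had undergone the procedure labelled ICH, 3 of each genotype. Because the design names 12 mice, 6 per genotype, a library was read as 1 animal. The sources used here do not give the background strain of the Adrb3-/- mice, their relation to the wild-type mice, the age of the animals or the gate that defined HSCs. The Adrb3 transcript was not analysed here, and the genotype labels rest on the submitters' word.

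The β3-adrenergic receptor is a G protein-coupled receptor for noradrenaline that raises cyclic AMP in its target cells. In mouse marrow, sympathetic nerve fibres release noradrenaline, and β3 signalling in stromal cells is known for lowering the chemokine Cxcl12, which holds stem and progenitor cells in place. Marrow macrophages, which carry surface proteins such as Vcam1, Cd163 and the mannose receptor Mrc1, also take part in that retention. MHC class II molecules, which present peptides to T cells, are made by macrophages, dendritic cells and B cells, and also by part of the mouse stem and progenitor pool.

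The 5 sham libraries held 306535 to 556407 gene counts each, and 754 genes were measured, of which 674 had a mean above background. Every value below is the deposited signal, a count multiplied by 1 scaling factor per library, in which 1 count was worth 1.15 to 1.90. A log2 change is the difference between genotypes in mean log2(value + 1), with its standard error (SE) from a linear model fitted to 11 libraries. The cells of these libraries carried abundant neutrophil lineage RNA: S100a8 and S100a9, which encode the calprotectin subunits of neutrophils, together took 54.0% and 52.4% of gene counts in the wild-type libraries and 49.4%, 44.3% and 23.2% in Adrb3-/- replicates 1, 2 and 3. The 7 stem and progenitor genes described here (Cd34, Kit, Flt3, Gata2, Erg, Cd27 and Cebpa) were all detected. By mean value over the 5 sham libraries they ranked from 59 (Cd34) to 326 (Kit) of the 754 genes, with S100a9 and S100a8 at 1 and 2. In RNA from a pool of cells, fewer cells of a type and less RNA per cell cannot be told apart. Adrb3-/- replicate 3 stood apart from the other sham libraries by its low S100a8 and S100a9 share, and it held the highest value of the 3 Adrb3-/- libraries for all 12 of the higher genes chosen below and the lowest for 11 of the 12 lower ones. For many of the log2 changes that came closer to 0 without it, or without 1 of the wild-type libraries, that value is given beside them. A log2 change printed without such a value is not thereby shown to be stable.

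No gene differed between Adrb3-/- and wild-type cells sorted as HSCs after sham surgery at an adjusted p under 0.05 (0 of 674, 0.00%). The smallest adjusted p was 0.587 in limma with Benjamini-Hochberg adjustment. At an unadjusted p under 0.05, 20 genes had higher values in Adrb3-/- (2.97% of the 674) and 12 had lower values (1.78%), a total of 32. The values of all 3 Adrb3-/- libraries lay above both wild-type libraries for 70 genes (10.4%) and below both for 110 genes (16.3%). The log2 change was positive for 256 genes (38.0%) and negative for 418 (62.0%), with a median of -0.10 over all 674. What follows is therefore a description of values and of their spread. The genes with the smallest p among the higher ones were mostly macrophage and MHC class II genes, and those among the lower ones included neutrophil granule genes.

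**Figure D1:**
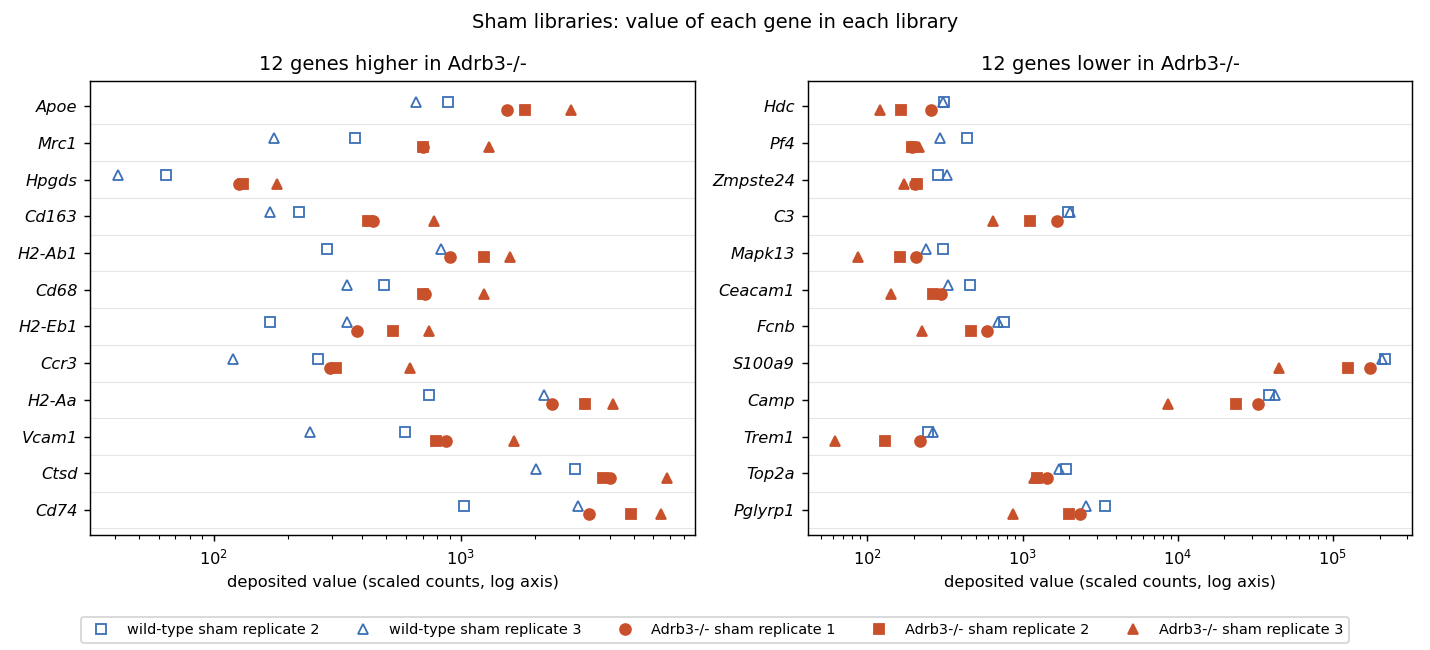
Deposited value (scaled counts, log axis) of the 12 genes with the smallest unadjusted p in each direction, in the 5 sham libraries (open blue symbols, wild type; filled orange symbols, Adrb3-/-). In each of the 24 genes the genotypes do not overlap, which the choice by p favours, and none passed the adjusted test; Adrb3-/- replicate 3 is outermost in 12 of the 12 higher and 11 of the 12 lower genes.

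Apoe, which encodes the lipid carrier apolipoprotein E and is made by macrophages, had the smallest p of all. Its values were 888 and 659 in the wild-type libraries and 1542, 1818 and 2798 in Adrb3-/- replicates 1, 2 and 3. The groups did not overlap, and the lowest Adrb3-/- value exceeded the highest wild-type value by more than the wild-type libraries differed from each other. The log2 change was 1.38 (SE 0.30, adjusted p = 0.587), and 1.13 without Adrb3-/- replicate 3.

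Mrc1, the mannose receptor of tissue macrophages, stood at 374 and 176 in wild type and at 704, 704 and 1299 in Adrb3-/-. Both wild-type values were below all Adrb3-/- values, although they differed from each other by more than the first Adrb3-/- pair did. The log2 change was 1.75 (SE 0.42, adjusted p = 0.587 in limma). It was 1.45 without Adrb3-/- replicate 3 and 1.21 without wild-type replicate 3. Cd163, the macrophage receptor that clears haemoglobin bound to haptoglobin, gave 222 and 169 against 443, 423 and 777. Its log2 change was 1.43 (SE 0.48), or 1.15 without Adrb3-/- replicate 3 and 1.24 without wild-type replicate 3. Vcam1, the adhesion molecule by which marrow macrophages and stroma bind integrin on blood cell precursors, gave 594 and 245 against 872, 793 and 1633. Its log2 change was 1.45 (SE 0.53), or 0.81 without wild-type replicate 3 and 1.12 without Adrb3-/- replicate 3. Cd68, a lysosomal membrane protein of phagocytes, gave 490 and 346 against 714, 701 and 1240. Its log2 change was 1.05 (SE 0.36), or 0.80 without wild-type replicate 3 and 0.78 without Adrb3-/- replicate 3. In these 3 genes, as in Mrc1, Adrb3-/- replicates 1 and 2 lay close together, replicate 3 lay far above them, and wild-type replicate 3 was the lowest library. Adjusted p was 0.968 for all 3.

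Among all 674 genes, 38.0% had a positive log2 change, 10.4% were higher without overlap and 2.97% were higher at an unadjusted p under 0.05. The macrophage surface list held 16 genes, all above background. Of these, 12 had a positive log2 change, 6 had all Adrb3-/- values above both wild-type values and 1 had them all below, and 5 had an unadjusted p under 0.05, all higher in Adrb3-/-. Its median log2 change was 0.37 against -0.10 over all genes, and the summed value of the list ran from 3284 to 4754 in wild type and from 5571 to 8504 in Adrb3-/-. The median was 0.01 without wild-type replicate 3 and 0.66 without wild-type replicate 2, so its size rested on which wild-type library was used. Adgre1, which encodes the macrophage marker F4/80, showed this narrow margin with 408 and 208 against 416, 435 and 753, a log2 change of 0.82 (SE 0.37; 0.33 without wild-type replicate 3 and 0.54 without Adrb3-/- replicate 3).

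A list of mostly secreted or lysosomal products of macrophages, which also held the enzyme gene Hpgds and the receptor gene Trem2, gave a similar picture. Of the 14 genes in that list, 10 had a positive log2 change, 9 were higher in every Adrb3-/- library than in both wild-type libraries and none was lower, and the median was 0.61 (0.47 without Adrb3-/- replicate 3 and 0.34 without wild-type replicate 3). Ctsd, the lysosomal protease cathepsin D, was measured at 2905 and 2009 in wild type and at 4007, 3767 and 6840 in Adrb3-/-. Its log2 change was 0.96 (SE 0.35), or 0.69 without wild-type replicate 3 and 0.69 without Adrb3-/- replicate 3. Hpgds, the hematopoietic prostaglandin D synthase, was a low gene at 64.5 and 41.0 in wild type and 126, 132 and 180 in Adrb3-/-. Wild-type replicate 3 was below the background of its own library, 57.7, and the other groups had means of 50.4 (wild-type ICH) and 37.0 (Adrb3-/- ICH), so the gene was kept through its Adrb3-/- sham values. Its log2 change of 1.47 (SE 0.41, adjusted p = 0.968 in limma) therefore rests in part on a value not above background. Without wild-type replicate 3 the log2 change of Hpgds was 1.15. Its place in the counts above follows from the way it was kept. Lpl, lipoprotein lipase, had 313 and 113 against 408, 351 and 519, and Ctss, cathepsin S, had 474 and 553 against 729, 776 and 1189.

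The 3 genes of the C1q subunits, which start the classical complement pathway and are made by macrophages, differed widely within the wild-type pair. C1qc stood at 858 and 277 in wild type and at 1329, 1241 and 2835 in Adrb3-/-. C1qb gave 668 and 286 against 1035, 1065 and 2233, and C1qa gave 748 and 225 against 850, 935 and 1733. Wild-type replicate 2 was at least 2-fold above wild-type replicate 3 in each of the 3, and for C1qa it lay close to the lowest Adrb3-/- library. The log2 changes were 1.78 (SE 0.68), 1.63 (SE 0.62) and 1.44 (SE 0.63), and those without wild-type replicate 3 were 0.96, 1.01 and 0.57.

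MHC class II genes had the highest list median, 1.10 on the log2 scale, and all 8 members above background had a positive log2 change. All Adrb3-/- values exceeded both wild-type values in 5 of the 8 (10.4% of all 674 genes). At an unadjusted p under 0.05, 6 of the 8 were higher (2.97% of the 674). These genes are read together because they share a proximal promoter element, the Y box, an inverted CCAAT sequence bound by NF-Y, downstream of an X box bound by RFX; both work with the coactivator CIITA. Of the 9 class II genes measured, 6 had a promoter in the RefSeq table (GRCm38.p6), and 5 with ATTGG close to the start are shown to let the shared element be seen. Each is the 120 bases before the annotated start, on the gene's own strand. They lie at chr17:34287824-34287943 (H2-Aa, minus strand), chr17:34305747-34305866 (H2-Eb1, plus), chr17:34153071-34153190 (H2-DMb1, plus), chr17:34145129-34145248 (H2-DMb2, plus) and chr17:34238785-34238904 (H2-Ob, plus). Capitals mark CTGATTGG where it is present, otherwise the ATTGG within it, and ATGATGC, a run of the X box region.
H2-Aa: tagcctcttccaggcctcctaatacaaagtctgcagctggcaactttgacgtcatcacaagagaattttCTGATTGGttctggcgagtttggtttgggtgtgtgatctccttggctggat
H2-Eb1: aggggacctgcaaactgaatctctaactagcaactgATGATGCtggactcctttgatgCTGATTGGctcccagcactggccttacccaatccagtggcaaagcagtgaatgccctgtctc
H2-DMb1: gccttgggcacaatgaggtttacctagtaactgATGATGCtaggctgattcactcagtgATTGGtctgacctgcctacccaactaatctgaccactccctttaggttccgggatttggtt
H2-DMb2: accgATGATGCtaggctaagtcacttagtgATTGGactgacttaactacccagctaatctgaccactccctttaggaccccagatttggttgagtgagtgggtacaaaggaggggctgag
H2-Ob: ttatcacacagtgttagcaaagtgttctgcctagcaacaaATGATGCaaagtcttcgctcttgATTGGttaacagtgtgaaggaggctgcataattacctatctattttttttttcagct
H2-DMa had 2 windows in the table, so the 6 genes had 7, and ATTGG lay in 6 of these, all but 1 window of H2-DMa. CTGATTGG lay in the windows of 2 genes, and ATGATGC ahead of ATTGG in 4 of the 5 shown, with 16 to 19 bases between them. In the RefSeq windows of 250 bases before each start, 32851 in all, CTGATTGG was found in 3.83% on either strand (1.85% on the gene's strand), ATTGG in 33.8% (19.7%) and ATGATGC in 1.99% (1.05%). The search covered both strands, ATTGG is contained in CTGATTGG, and ATGATGC was chosen after the windows were read. A match describes letters only.

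Of the class II genes, H2-Ab1, the β chain of the I-A molecule, had the smallest p. Its values were 287 and 828 in wild type and 904, 1240 and 1576 in Adrb3-/-. The groups did not overlap, but wild-type replicate 3 lay far closer to Adrb3-/- replicate 1 than to wild-type replicate 2. The log2 change was 1.31 (SE 0.44, adjusted p = 0.968), and 0.55 without wild-type replicate 2 and 2.07 without wild-type replicate 3. H2-Aa, its α chain partner, gave 746 and 2171 against 2332, 3166 and 4124, a log2 change of 1.29 (SE 0.47). H2-Eb1, the β chain of I-E, gave 169 and 346 against 382, 530 and 745, a log2 change of 1.14 (SE 0.41). Cd74, the invariant chain that guides class II molecules to endosomes, gave 1034 and 2968 against 3312, 4857 and 6476, a log2 change of 1.42 (SE 0.53). In each of these genes wild-type replicate 2 was the lowest library and wild-type replicate 3 stood just under the Adrb3-/- libraries. Without wild-type replicate 2 the log2 changes of H2-Aa, H2-Eb1 and Cd74 were 0.52, 0.62 and 0.67.

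The genes for the peptide-loading helpers overlapped more. H2-DMb2, a chain of the peptide exchange factor H2-DM, had 178 and 333 against 331, 530 and 765. H2-Ob, a chain of the H2-DM inhibitor H2-O, had 245 and 418 against 401, 610 and 715. In both, wild-type replicate 3 was above Adrb3-/- replicate 1, and the log2 changes were 1.07 (SE 0.40) and 0.80 (SE 0.34), or 0.62 and 0.42 without wild-type replicate 2. Without wild-type replicate 2 the median of the class II list was 0.54, and without wild-type replicate 3 it was 1.58, with all 8 genes positive in both cases.

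The summed class II value was 2993 and 7547 in wild type and 8109, 11474 and 15153 in Adrb3-/-. Other marker lists had the same low library: the 7 stem and progenitor genes summed to 1203 and 2755 in wild type and 2143, 2921 and 3552 in Adrb3-/-. Macrophage surface genes had the opposite order within the wild-type pair. The 4 B cell genes measured (Ms4a1, Btla, Fcer2a and Cxcr5) summed to 816 and 698 against 850, 1088 and 1289, with a median of 0.50. All 4 were positive (38.0% of all 674 genes) and 3 were higher without overlap (10.4% of the 674). None of the 4 was at the floor in these libraries, but Fcer2a was low. It had 62.6 and 61.5 in wild type, where the library backgrounds were 43.9 and 57.7. The part of any of these cell types in the class II values was not tested. MHC class I and antigen processing genes had a median of 0.20 (0.08 without wild-type replicate 2), with 12 of 14 positive, none at an unadjusted p under 0.05, and H2-K1 at 2408 and 6069 against 4303, 5343 and 8082. For H2-K1 the 2 wild-type values bracketed 2 of the 3 Adrb3-/- values.

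Neutrophil genes had the lowest medians of the 25 lists. S100a9 stood at 216327 and 206949 in wild type and at 172863, 124702 and 45115 in Adrb3-/- replicates 1, 2 and 3. Its groups did not overlap, the wild-type pair lay close together, and Adrb3-/- replicate 3 was far below the rest. The log2 change was -1.09 (SE 0.48, adjusted p = 0.992), and -0.53 without that library. Camp, the cathelicidin of secondary granules, gave 38611 and 42198 against 33074, 23878 and 8648, with a log2 change of -1.09 (SE 0.48) and of -0.52 without replicate 3. Chil3, a chitinase-like protein of neutrophil precursors and macrophages, gave 17353 and 17720 against 13754, 8749 and 3119, a log2 change of -1.28 (SE 0.63; -0.68 without replicate 3). Trem1, a receptor that amplifies inflammatory signals in neutrophils and monocytes, gave 245 and 266 against 220, 130 and 62.3, a log2 change of -1.07 (SE 0.47; -0.59 without replicate 3). The order of the 5 libraries was alike in these genes, with Adrb3-/- replicate 1 nearest to wild type.

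Granule genes of neutrophil precursors were negative in 11 of 11, with 6 not overlapping and a median of -0.87. Mature neutrophil genes were negative in 14 of 15, with 7 not overlapping and a median of -0.66. Without Adrb3-/- replicate 3 the medians were -0.47 and -0.25. Over all 674 genes, 62.0% were negative and 16.3% were lower without overlap. Primary granule genes overlapped between genotypes: Mpo, the myeloperoxidase gene, had 14706 and 9545 against 10367, 6875 and 4064, a log2 change of -0.84 (SE 0.42; -0.49 without Adrb3-/- replicate 3 and -0.53 without wild-type replicate 2). Fcnb, a ficolin of myeloid cells, had 757 and 697 against 593, 465 and 226. Pglyrp1, a granule protein that binds peptidoglycan, had 3376 and 2561 against 2338, 2006 and 866. The summed values of the mature neutrophil list were 413865 and 405857 in wild type and 331239, 251121 and 86135 in Adrb3-/-, an order of the 5 libraries that was the reverse of that of the class II sums. S100a8 and S100a9 took a large share of the counts, and the part of this share in the values of other genes was not tested. With each library centred on its median, 84 genes were non-overlapping and higher and 81 lower, in place of 70 and 110. At an unadjusted p under 0.05 in limma, that centring gave 22 higher and 2 lower genes, in place of 20 and 12.

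Of the 12 lower genes, Pf4 alone did not have Adrb3-/- replicate 3 as its lowest library. Pf4, the platelet chemokine made by megakaryocytes, was measured at 438 and 295 in wild type and at 193, 193 and 216 in Adrb3-/-. The 3 Adrb3-/- values were almost equal and both wild-type values lay above them, with a log2 change of -0.84 (SE 0.32, adjusted p = 0.968) of -0.89 without replicate 3 and of -0.56 without wild-type replicate 2. Zmpste24, the protease that matures prelamin A, gave 287 and 328 against 203, 210 and 172, a log2 change of -0.66 (SE 0.25). Top2a, the topoisomerase of dividing cells, gave 1903 and 1715 against 1430, 1237 and 1194, a log2 change of -0.49 (SE 0.22). It was 1 of 11 cell division genes, with a list median of -0.39 (-0.25 without Adrb3-/- replicate 3). Of the 11, 10 were negative (62.0% of all 674 genes) and 4 were lower without overlap (16.3% of the 674). The 5 megakaryocyte and platelet genes had a median of -0.15, with Pf4 alone not overlapping. Hdc, the histidine decarboxylase that makes histamine, gave 313 and 307 against 257, 164 and 121. Its log2 change was -0.85 (SE 0.32), or -0.59 without Adrb3-/- replicate 3. C3, the central complement protein, had 1964 and 2028 against 1674, 1109 and 649, a log2 change of -0.91 (-0.55 without Adrb3-/- replicate 3), opposite in direction to the C1q genes of the same list.

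Signalling and adhesion genes completed the 12 lower ones. Mapk13, the p38δ kinase, gave 306 and 238 against 205, 163 and 86.5, a log2 change of -0.92 (SE 0.37; -0.56 without Adrb3-/- replicate 3). Ceacam1, an inhibitory adhesion receptor, gave 461 and 329 against 300, 264 and 143, a log2 change of -0.79 (SE 0.34; -0.47 without Adrb3-/- replicate 3). Both were lower in every Adrb3-/- library, with replicate 3 lowest. Ccr3, the eotaxin receptor of eosinophils, was among the 12 higher ones with 264 and 120 against 296, 313 and 622, a log2 change of 1.11 (SE 0.40; 0.55 without wild-type replicate 3 and 1.67 without wild-type replicate 2). It was the single positive gene of the 10 in the eosinophil list.

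**Figure D2:**
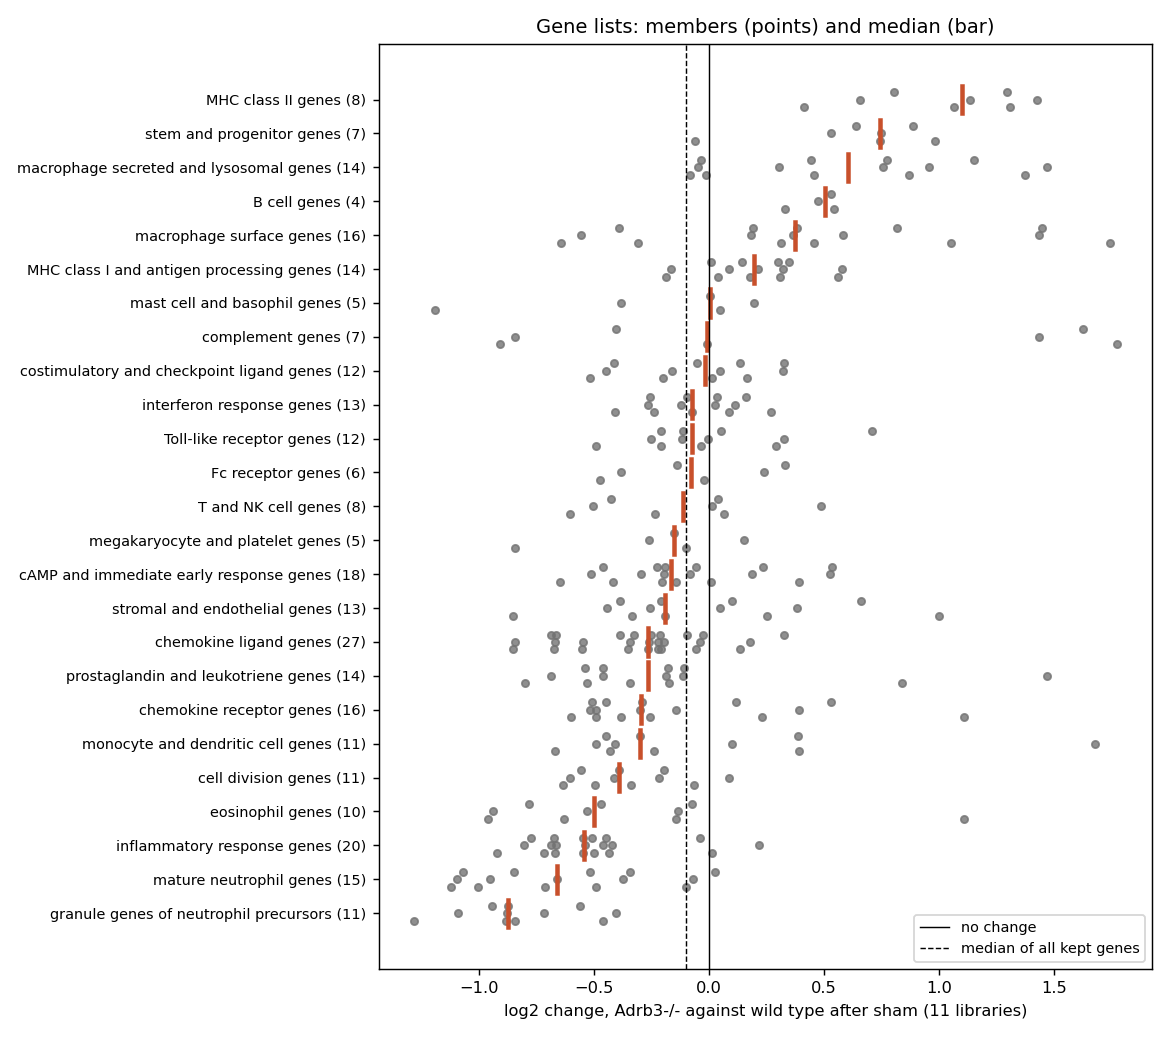
Log2 change (Adrb3-/- against wild type after sham, 11 libraries) of each member above background of 25 gene lists (points; number of genes in brackets) with the list median (orange bar); the solid line is no change and the dashed line is the median of all 674 genes, -0.10. MHC class II genes lie highest, at a median of 1.10, and granule genes of neutrophil precursors lowest, at -0.87.

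The stem and progenitor genes gave no separation between genotypes. Cd34, a surface sialomucin of progenitors, had 266 and 987 in wild type and 676, 1063 and 1452 in Adrb3-/-. Kit, the stem cell factor receptor, had 68.3 and 235 against 154, 216 and 234. For both genes wild-type replicate 2 was the lowest library, and wild-type replicate 3 was above at least 1 Adrb3-/- library. The log2 changes were 0.98 (SE 0.75) and 0.64 (SE 0.97), or 0.04 and -0.24 without wild-type replicate 2. Gata2, a transcription factor needed by stem cells, had 137 and 440 against 374, 493 and 509, and Flt3, a receptor of multipotent progenitors, had 150 and 301 against 208, 361 and 385. Of the 7 genes, 6 were positive (38.0% of all 674 genes), none was non-overlapping and none had an unadjusted p under 0.05. The list median of 0.75 was 0.04 without wild-type replicate 2 and 1.53 without wild-type replicate 3.

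Genes of cyclic AMP signalling, which acts downstream of a β-adrenergic receptor, and genes that acute signals induce were measured in 22 cases. In this mixed list 18 were above background, among them the receptor genes Adora3, Adcyap1r1 and Ptger2 and the G protein subunit gene Gnai3. Of the 18, 6 were positive and 12 negative (38.0% and 62.0% of all 674 genes), and none had an unadjusted p under 0.05 in limma. Only 1 did not overlap, Crem, the cyclic AMP response modulator, at 121 and 118 against 113, 114 and 87.7. Their median was -0.17 against -0.10 over all genes, and it was -0.37 without wild-type replicate 2, 0.18 without wild-type replicate 3 and 0.07 without Adrb3-/- replicate 3. Nr4a1, an orphan nuclear receptor induced within minutes of stimulation, stood at 294 and 4109 in wild type and at 2841, 2171 and 659 in Adrb3-/-. All 3 Adrb3-/- values lay between the 2 wild-type values, and the log2 change of 0.54 (SE 1.16) was -1.36 without wild-type replicate 2 and 2.44 without wild-type replicate 3. Fosb, a subunit of the AP-1 transcription factor, had 317 and 1194 against 564, 600 and 238, and Jun, another, had 774 and 2482 against 1282, 1648 and 787.

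Inflammatory response genes followed the same libraries. Ccl3, a chemokine that draws monocytes, had 526 and 2245 against 1202, 692 and 388, and Tnfaip3, an inhibitor of NF-κB signalling, had 353 and 1565 against 1022, 595 and 234. The 20 genes had a median of -0.54, with 2 positive (38.0% of all 674 genes) and 1 lower without overlap (16.3% of the 674). The median was -1.26 without wild-type replicate 2, 0.23 without wild-type replicate 3 and -0.15 without Adrb3-/- replicate 3. Eosinophil granule genes ran the other way. Prg2, the major basic protein, had 5718 and 1036 against 1349, 2184 and 1327, and the 10 eosinophil genes summed to 9553 and 2292 against 2948, 3912 and 3286. Their median of -0.50 was 0.28 without wild-type replicate 2 and -1.17 without wild-type replicate 3. In all, 125 of the 674 genes (18.5%) had the 3 Adrb3-/- values between the 2 wild-type values, 80 with wild-type replicate 2 the higher and 45 with it the lower, and 87 genes differed by over 2-fold within the wild-type pair.

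**Figure D3:**
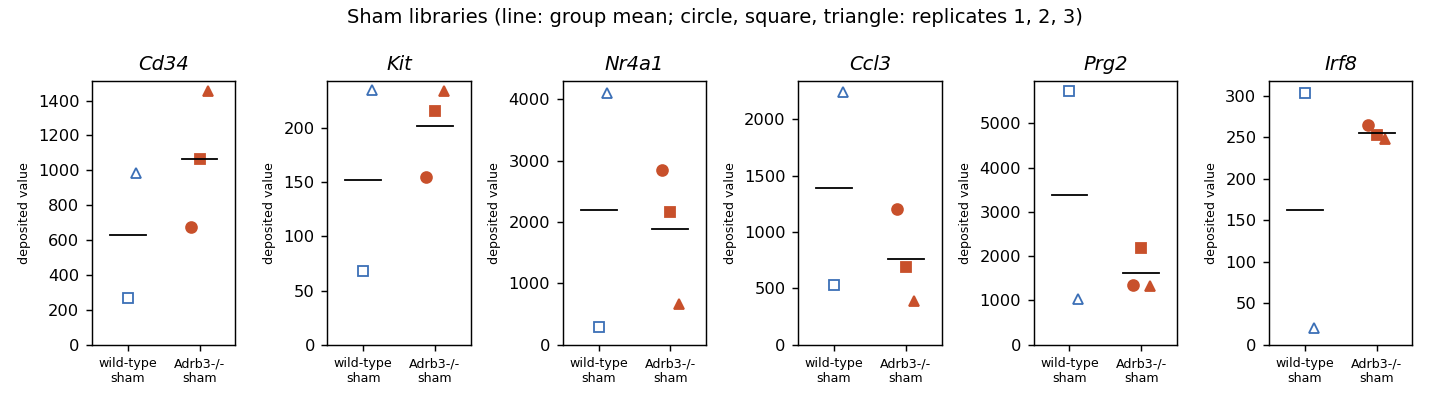
Deposited value of 6 genes in the 2 wild-type and 3 Adrb3-/- sham libraries (symbols, replicates 1 to 3 as circle, square and triangle; line, group mean; axes start at 0). In Nr4a1 and Ccl3 the wild-type values bracket 2 or all of the Adrb3-/- values, and in Prg2 wild-type replicate 2 stands far above every other library.

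Irf8, the transcription factor of monocyte and dendritic cell development, was the 1 gene that passed the test once a single library was removed. Its values were 304 and 20 in wild type, the second being the floor that the table gives to under 20 counts, and 264, 253 and 248 in Adrb3-/-. The Adrb3-/- libraries agreed closely, and the wild-type libraries stood on either side of them. The log2 change was 1.68 (SE 0.86, adjusted p = 0.992) with both. Without wild-type replicate 2 it was 3.61 (adjusted p = 0.0216), measured against the library at the floor alone, and without wild-type replicate 3 it was -0.25.

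The remaining lists had medians between -0.30 and 0.005. For comparison, 38.0% of all 674 genes were positive, 10.4% were higher without overlap and 16.3% were lower without overlap. Monocyte and dendritic cell genes had a median of -0.30, with 4 of 11 positive, 2 higher in every Adrb3-/- library than in both wild-type libraries and 3 lower. Chemokine receptors had a median of -0.30, with 5 of 16 positive, 3 not overlapping and higher and 3 lower. Chemokine ligands had a median of -0.26, with 3 of 27 positive, none not overlapping and higher and 3 lower, Pf4 being the single one at an unadjusted p under 0.05. Prostaglandin and leukotriene genes had a median of -0.26, with 2 of 14 positive (Hpgds and Hpgd, both not overlapping) and 3 not overlapping and lower. Stromal and endothelial genes had a median of -0.19 (6 of 13 positive), T and NK cell genes -0.11 (4 of 8), Fc receptors -0.08 (2 of 6), Toll-like receptors -0.07 (4 of 12) and interferon response genes -0.07 (6 of 13). Costimulatory ligands had a median of -0.02 (6 of 12), complement genes -0.01 (3 of 7) and mast cell and basophil genes 0.005 (3 of 5). Cxcl12, the retention chemokine of marrow stroma, was measured at 1068 and 163 in wild type and at 270, 238 and 191 in Adrb3-/-. All 3 Adrb3-/- values lay between the wild-type values.

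The genotype difference after sham was set against that after ICH, in which no library is shared. The interaction test, which asks whether the 2 genotype differences differ, found 0 of 674 genes at an adjusted p under 0.05 (0.00%; smallest adjusted p 0.454 in limma), with 23 genes (3.41%) lower and 6 (0.890%) higher after ICH at an unadjusted p under 0.05. Mrc1, Apoe, Vcam1, Mertk and Hpgds had the smallest interaction p. Apoe, for example, had 743, 731 and 799 in wild type and 537, 733 and 527 in Adrb3-/- after ICH, a log2 change of -0.35 against 1.38 after sham. Mrc1 had -0.73 against 1.75, Vcam1 -1.45 against 1.45 and Mertk, a receptor by which macrophages take up dying cells, -1.65 against 0.59 (0.03 without wild-type sham replicate 3). The adjusted interaction p in limma was 0.454 for all 5. Assay readings were unusual in 2 of the Adrb3-/- ICH libraries. Replicate 2 held 110740 gene counts, with 243 genes under 20 counts and 1 count worth 5.16. Replicate 1 had only 6278 counts of the brightest positive control and 104 genes under 20 counts. Its gene counts were not low, at 450282. Its background value was 123.6, and its summed gene value, 866009.6, was the highest of the series. Mertk and Hpgds stood at the floor of 20 in Adrb3-/- ICH replicate 2. Of the macrophage surface genes 14 of 16 were negative after ICH, and 401 of all 674 genes (59.5%) were too. The class II list was positive in 8 of 8 after ICH as well, at a median of 0.44, where 273 genes (40.5%) were positive. Its summed value after ICH was 4650.3, 4844.8 and 3883.1 in wild type and 9581.7, 4516.7 and 5210.5 in Adrb3-/-. Adrb3-/- ICH replicate 1 thus lay far above the rest, and replicate 2 lay within the wild-type range. Neutrophil granule genes, negative in 11 of 11 after sham, were negative in 3 of 11 after ICH. Their summed value after ICH was 49616.5, 63409.8 and 66999.4 in wild type and 94610.1, 57880.4 and 54469.6 in Adrb3-/-. Adrb3-/- ICH replicate 1 was again far above the rest, and replicates 2 and 3 lay within the wild-type range.

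**Figure D4:**
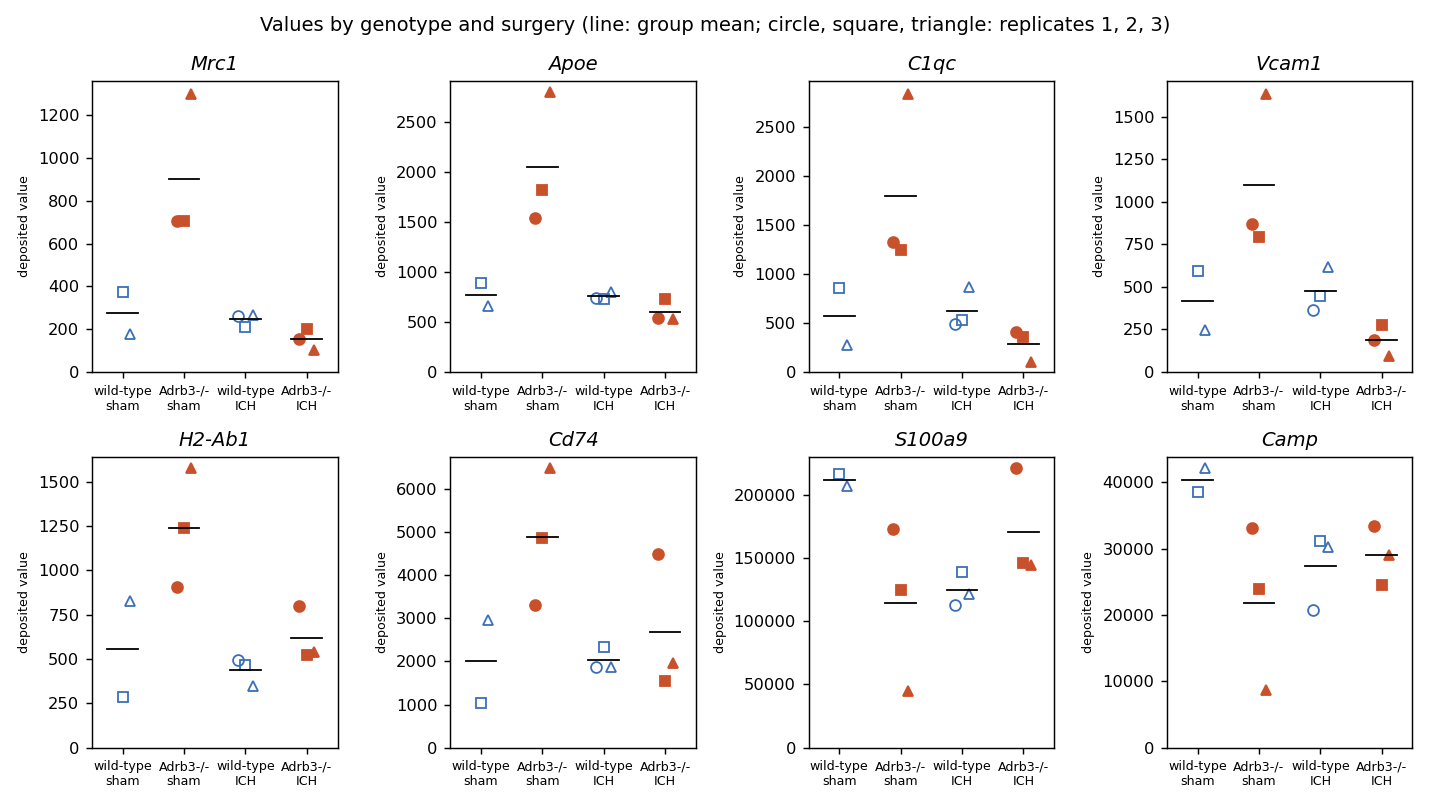
Deposited values of 8 genes by genotype and surgery in 11 libraries (symbols, replicates 1 to 3 as circle, square and triangle; line, group mean; axes start at 0). Mrc1, Apoe, C1qc and Vcam1 have higher Adrb3-/- than wild-type means after sham and lower ones after ICH; the difference between the 2 contrasts had an adjusted p of 0.454 for each.

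Wild-type sham replicate 1, left out above, held 24775 gene counts, 79 counts of the brightest positive control against 28932 to 35100 in the other sham libraries, and 164 genes under 20 counts. One count was worth 15.5 there, and across genes its log2 values had an r of 0.09 to 0.17 with the other 11 libraries, while the other 5 sham libraries had an r of 0.89 to 0.98 with each other. With it included, again no gene passed (smallest adjusted p 0.462 in limma, 30 genes at an unadjusted p under 0.05), 240 of 674 genes (35.6%) turned sign, and the median of all genes was -0.40. All 12 of the higher genes stayed positive, with Mrc1 at 2.95 and H2-Aa at 3.27. Both Mrc1 and H2-Aa were at the floor of 20 in that library. Of the 12 lower genes, 5 turned positive, S100a9 to 1.01 and Camp to 0.86 among them. Only 26 genes then did not overlap and were higher, and 66 lower. The medians were 1.21 for class II genes, 0.78 for macrophage surface genes and -0.02 for granule genes of neutrophil precursors.

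**Figure D5:**
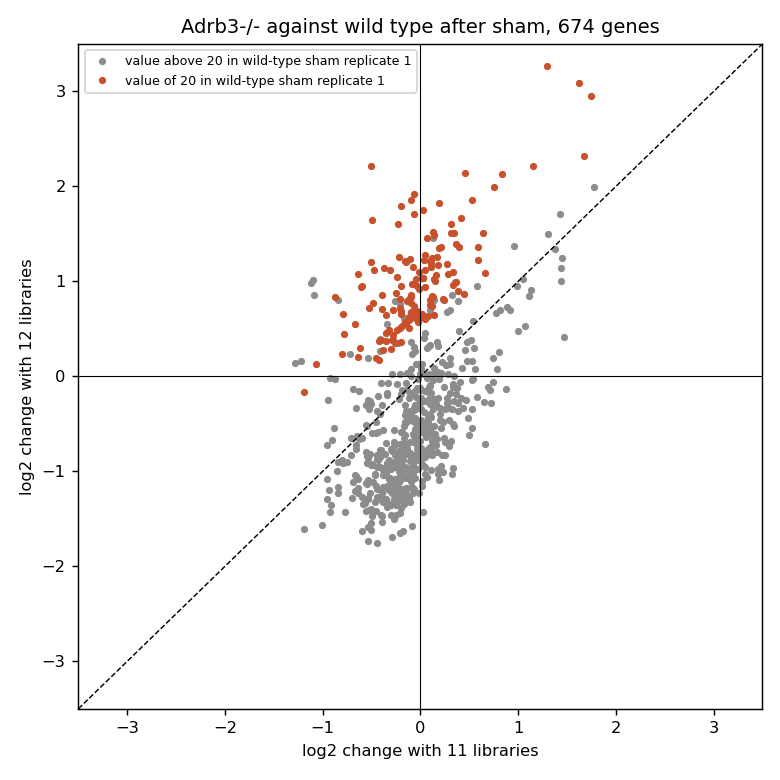
Log2 change (Adrb3-/- against wild type after sham) of 674 genes with 11 libraries (horizontal) and with the failed wild-type library added (vertical); the dashed line is equality, and orange points are the 141 genes at the value of 20 in that library. Points in the upper left and lower right parts are the 240 genes that turned sign.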

How the data were processed

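RNA of cells sorted as HSCs was assayed in 12 mouse libraries. The deposited values are signal: per the values of the deposited table, each gene is a whole count times 1 factor per library (whole within 0.0045 for values up to 1000 counts), and genes under 20 counts carry an unscaled 20. The sources used here do not give the instrument, panel or scaling, and no scaling was added. No count model was used because of that floor. No pair of libraries of a group looked like a duplicate (chi-square over degrees of freedom of at least 7.34). Counts and the spread between mice limit the precision.

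Genes were kept when their mean over 11 libraries exceeded 52.2, the average over those libraries of the mean plus 2 SD of 8 negative controls, scaled; 80 of 754 were removed. Log2(value + 1) was fitted with 4 group means in limma 3.58.1 (lmFit and eBayes, R 4.3.3; 7 residual degrees of freedom), two-sided, with Benjamini-Hochberg adjustment over 674 genes and a threshold of 0.05. All groups share 1 estimate of the spread. The fit was tested on simulated data in which each gene was drawn independently. That test therefore cannot show how the fit behaves when many genes of a library shift together. Of the symbols, 744 are current and 9 older in GRCm38.p6.

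The samples, members and 25 gene lists were chosen with earlier results of these data known. Named genes were the 12 higher and 12 lower with the smallest p among those above 20 in every library of the higher group, up to 5 members of a list by mean value, the stem and cyclic AMP genes, and the 5 with the smallest interaction p. Other genes, such as Irf8, H2-Ob, Ctss, Crem and Cxcl12, were named after their values were seen. Replicate numbers were not used to pair libraries. Deviations from the group mean had an r of -0.02 and -0.19 between same-numbered sham libraries. The deviations of the 2 wild-type libraries mirror each other, so these r values cannot show whether a pairing exists. Alternatives covered libraries, filters, pseudocount, floor, scaling, weights and the block.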

Additional observations from a re-analysis of the deposited data

Results flagged for a closer look

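Of the 41 genes followed across the alternatives, 10 had opposite differences without overlap after sham and after ICH. After sham every Adrb3-/- library lay on one side of both wild-type libraries. After ICH every Adrb3-/- library lay on the other side of all 3 wild-type libraries. The value given for each is the log2 change between genotypes after ICH minus that after sham, from the interaction contrast in limma. It was -2.47 for Mrc1, -2.28 for Cd163, -2.89 for Vcam1, -1.69 for Adgre1, -2.86 for C1qa, -2.76 for C1qb, -3.09 for C1qc and -1.89 for Ccr3, each with an adjusted p of 0.454. It was 1.51 for Mapk13 (adjusted p = 0.605) and 1.53 for S100a9 (adjusted p = 0.888). None of the 10 passed the adjusted threshold. Among all 674 genes, 16 had such opposite, non-overlapping differences. The 41 genes include those with the smallest p in the sham and interaction contrasts, a choice that favours this pattern. The 10 of 41 can therefore not be compared with the 16 of 674.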

How the results depend on the processing

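With 2 wild-type libraries, the count of 0 genes held in most of the alternatives run. Leaving out 1 library gave 0 to 1 genes for the sham contrast (Irf8, without wild-type sham replicate 2) and 0 to 1 for the interaction (Irf8 without that library, Serpinb9 without Adrb3-/- ICH replicate 3). Array weights over 12 libraries, whose fit stopped short of its tolerance, gave 3 genes in the sham contrast, Apoe at 1.13, H2-Ab1 at 1.68 and Cd74 at 1.79, each with an adjusted p of 0.0406. For the sham contrast the smallest adjusted p ranged from 0.0216 to 0.9995 over all alternatives, and genes at an unadjusted p under 0.05 from 6, without Adrb3-/- sham replicate 3, to 76, with those weights. For the interaction these ranges were 0.0197 to 0.9969 and 18 to 93 genes, the 93 without Adrb3-/- ICH replicate 3. In the sham contrast quantile normalization gave 46 (smallest adjusted p 0.0886). The replicate block gave 0 calls and 41 such genes (smallest adjusted p 0.752) and changed no call.

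With 12 libraries the log2 change turned to 0.83 for Fcnb, 1.01 for S100a9, 0.98 for S100a8, 0.86 for Camp, 0.13 for Trem1, 1.65 for Top2a, 0.14 for Chil3, 0.80 for Mpo and -0.35 for Cxcr5; that library's low counts are given above. Leaving out 1 library gave -0.24 to 1.53 for Kit, -0.25 to 3.61 for Irf8, -1.36 to 2.44 for Nr4a1, -1.86 to 0.60 for Prg2 and -0.089 to 1.24 for H2-K1. Under the other alternatives run, the 41 genes followed kept their direction. Non-overlapping genes numbered 79 higher and 88 lower after quantile normalization, 190 and 222 without wild-type replicate 2, and 173 and 318 without wild-type replicate 3. Levels near 20 counts are limited by depth.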

Other observations

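A few genes with no values given so far were also separated between the genotypes after sham, without passing the adjusted test; they were chosen after their values were seen. Il18, an inflammasome-dependent cytokine, had 180 and 194 in wild type and 264, 286 and 367 in Adrb3-/-, and Ifnar1, a chain of the type I interferon receptor, had 228 and 261 against 319, 319 and 345. Among the lower ones, both members of lists counted above, Cpa3, the carboxypeptidase of mast cells and basophils, had 230 and 202 against 195, 99.1 and 42.7, and Ly6g, a neutrophil surface protein, had 727 and 693 against 560, 465 and 170. Adrb3-/- replicate 3 was again the outermost library in each of these genes.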
